A study of Mus musculus with 4 samples.

Results

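The 83 cytosolic ribosomal protein genes of the mouse were followed through 4 libraries of sorted spinal cord nuclei, 2 uninjured and 2 injured. The members are all Rpl and Rps symbols with a plain number and at most a letter and a further number, with Rplp0, Rplp1, Rplp2 and Rpsa, and without pseudogene symbols. They are 83 of the 32285 gene symbols in the files, 51 of the large ribosomal subunit and 32 of the small subunit.

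Nuclei came from the cervical spinal cord of female mice with the genotype Chx10Cre/+; ROSA26CAG-LSL-Sun1-sfGFP-Myc/+. In these mice Cre recombinase of the V2a lineage removes a stop cassette, so V2a interneurons, an excitatory class of the spinal cord, and any other cell with a history of Cre, carry a fluorescent protein on the nuclear envelope. The uninjured cords were taken from C1 to C8. The injured cords were taken from C3 to C8, 5 days after C2 hemisection, so an effect of the segments and one of the injury cannot be told apart. Fluorescent nuclei were sorted and read with 10x Genomics 3′ chemistry. No age is given in the labels, and the labels do not say whether the 2 libraries of a group are different animals. The tests therefore use only the variation from library to library, part of which may be technical.

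Ribosomal proteins are the protein part of the ribosome, which makes all other proteins of the cell. Their genes are short and highly transcribed, their spliced mRNAs are exported quickly and are among the most abundant in cytoplasm, and most of these mRNAs begin with a run of pyrimidines at the cap (the terminal oligopyrimidine, or TOP, motif) through which growth signals set their translation. In work on nuclei, whose own RNA is rich in introns and in retained noncoding RNA, ribosomal protein mRNA is therefore often read as a sign of cytoplasmic RNA. Several members have a near relative with its own expression pattern, such as Rpl3l of heart and skeletal muscle and Rpl10l and Rpl39l of the testis.

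The starts of the genes were searched for pyrimidine runs. Windows of 30 bases centred on the annotated RefSeq start (build GRCm38.p6, strand of the gene) were found for 63 of the 83 members. Those below belong to frequently stored genes, to the exceptions described later, and to the only genes that kept a count (Rpl7l1, Rpl3l and Rplp0), and capitals mark the longest unbroken pyrimidine run.
Rpl27a (chr7:109519180-109519209, plus strand): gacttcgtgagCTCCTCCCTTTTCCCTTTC
Rpl38 (chr11:114668565-114668594, plus strand): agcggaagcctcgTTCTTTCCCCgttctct
Rpl13 (chr8:123102335-123102364, plus strand): TTCCCTTTCgcctgattttgattggcgttt
Rps24 (chr14:24490663-24490692, plus strand): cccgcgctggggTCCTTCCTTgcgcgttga
Rps27 (chr3:90213634-90213663, minus strand): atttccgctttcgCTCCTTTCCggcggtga
Rpl6 (chr5:121204486-121204515, plus strand): tggtcaCCTCCCgtcattgcttatagaccg
Rpl11 (chr4:136053379-136053408, minus strand): ctgaCCCataaggccacggggccggaagtc
Rplp0 (chr5:115559452-115559481, plus strand): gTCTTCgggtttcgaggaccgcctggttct
Rpl3l (chr17:24727811-24727840, plus strand): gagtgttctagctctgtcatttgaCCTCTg
Rpl7l1 (chr17:46782642-46782671, minus strand): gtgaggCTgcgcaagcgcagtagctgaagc

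The longest run was 6 bases in the median member (range 2 to 21) and 4 bases in the median of 27025 promoters. A run of 7 or more was present in 31 of 63 members (49.2%) and in 18.5% of all promoters. The letters CTTTC, searched on both strands, were found in 18 of 63 members (28.6%) and in 7.34% of all promoters. The run of Rpl7l1 was 2 bases long and that of Rpl27a 19. These are runs anywhere in the window, so they do not show whether an mRNA begins with one. A start annotated a few bases off would shift a run, or cut one at the edge of the window. Only an error of about 15 bases could move a run at the cap out. Over the 60 members with a window that were stored in at least 5% of nuclei, the run length and the stored share described below had a Spearman rho of -0.19, a description across genes that share the same nuclei.

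Each deposited matrix stores, for a nucleus, counts of unique molecular identifiers per gene. It also stores entries that hold a 0, between 53.0% and 60.1% of the entries of a library. The files are named for SoupX, a tool that removes counts it assigns to free (ambient) RNA. A stored 0 was therefore read as a gene detected in the nucleus and then emptied by that step, and nothing outside the files backs this reading. Below, a gene is "stored" in a nucleus when it has an entry, and "kept" when that entry holds a count. After filtering, 3583 of 4001 nuclei remained, with 7128996 and 13496025 deposited counts in uninjured libraries 1 and 2 and 3982267 and 2901680 in injured libraries 1 and 2. Clusters named glutamatergic neuron-like held 463, 708, 414 and 314 nuclei of uninjured 1, uninjured 2, injured 1 and injured 2, and this order is kept throughout. In these nuclei Slc17a6, the vesicular glutamate transporter that defines spinal excitatory neurons, was stored in 76.0% to 89.6% per library. Its kept counts were only 1 to 71 per glutamatergic cluster, in clusters of 109 to 501 nuclei. By cluster it was stored in 73.9% to 92.1% of glutamatergic nuclei. Clusters of unnamed neurons stored it in 46.1% to 69.4%, and the inhibitory cluster in 5.08%. The glia (oligodendrocyte-, oligodendrocyte precursor- and astrocyte-like) numbered 16, 798, 14 and 6. No member was among the 2000 genes used to cluster the nuclei, so the classes do not depend on them.

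Almost no ribosomal protein RNA was left in the counts. The 83 members had 71031 stored entries, and 44 of these (0.0619%) held a count, 50 counts in all. Over all genes, 42.8% of 14998332 entries held a count. Of the members, 80 had 0 counts in every library, and 82 had a stored entry in every library. Among the 12489 genes stored in over 5% of glutamatergic nuclei in each library, 10.8% had 0 counts throughout, against 79 of the 80 members in that range. Some other lists of genes known for abundant cytoplasmic mRNA shared this pattern. The 20 abundant short cytoplasmic mRNAs (such as Actb and Ckb), the 6 elongation factors and the 13 mitochondrially encoded genes had 0 counts in glutamatergic nuclei of every library. Ribosomal proteins under other symbols kept 0% to 0.478% of their entries. Initiation factors and other TOP mRNA genes did not share the pattern and kept 4.73% to 12.1%. Nuclear long noncoding RNAs kept 65.4% to 84.3% of their entries, ribosome-related signalling genes 50.4% to 58.8%, ribosome biogenesis genes 13.7% to 22.8%, and mitochondrial ribosomal protein genes 7.94% to 12.9%.

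The 3 members with counts were Rpl7l1, a relative of Rpl7 with a known role in ribosome biogenesis, Rpl3l, the striated-muscle relative of Rpl3, and Rplp0, the scaffold of the ribosomal stalk. Rpl7l1 had 21, 1, 3 and 8 counts in the 4 libraries, from 167, 374, 125 and 124 entries. All 21 counts of uninjured 1 lay in 17 glutamatergic nuclei. Rpl3l had 4, 8, 2 and 0 counts from only 7, 25, 6 and 2 entries, so this gene was rarely stored and often kept. Rplp0 had 3 counts, all in injured 2, from 100 entries. The 95% Poisson interval of 21 counts is 13.0 to 32.1, that of 1 count is 0.0253 to 5.57, and intervals here cover counting error only. Uninjured 1 and 2 therefore differed in kept counts of Rpl7l1 beyond counting error, though its stored share was alike in both (32.6% and 30.7% of glutamatergic nuclei). The intervals do not cover the step that empties entries, and its part in this gap was not tested.

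Members' share of the counts of glutamatergic nuclei was 3.55e-04%, 4.96e-05%, 8.26e-05% and 0% (23, 4, 3 and 0 counts). In injured 2, 11345 stored entries of members held 0 of the 2612798 counts. Counting error alone allows a share of up to 1.15e-04% there, and this limit does not cover entries that were emptied. The uninjured mean was 2.02e-04% ± 2.16e-04 (SD, n = 2) and the injured mean 4.13e-05% ± 5.84e-05 (SD, n = 2). An exact two-sided permutation test gave p = 0.667, and 2 libraries against 2 allow no p below 0.333. In glia the members had 0, 2, 1 and 0 counts, among 12215 to 1711401 counts per library. The glia of uninjured 2 had 5986 stored entries of members, and these held 2 counts. So few kept counts could not show a difference between glia and neurons (exact paired permutation p = 0.750 over 4 libraries, smallest possible 0.125). In edgeR's quasi-likelihood test of summed counts, 0 members passed the filter on low counts for either comparison. That test called 0 of 10959 genes for injury (0% called, 221 at an unadjusted p under 0.05, and 6 with DESeq2) and 2298 of 10289 for glia against neurons (22.3% called). All that follows is on stored entries.

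Stored entries of the members were frequent and spread over nearly the whole family. In glutamatergic nuclei the median member was stored in 32.4%, 27.4%, 23.9% and 45.5% of nuclei. Rpl11, a large-subunit protein that also binds Mdm2, had the highest mean, with 68.0%, 60.6%, 45.9% and 72.6%. Rpl6 followed closely with 64.1%, 50.4%, 51.4% and 77.4%, above Rpl11 in both injured libraries. By the mean of the 4 libraries, others among the 8 highest were Rpl27a (54.1%), Rpl30 (50.1%), Rpl19 (47.6%), Rpl38 (47.6%) and Rpl13 (46.7%). At the other end stood Rpl10l (0.318%), Rpl3l (1.23%), Rps27l (9.01%), Rplp0 (12.4%), Rpl36a (17.1%), Rpl35 (19.3%), Rpl4 (19.7%) and Rpl7 (20.3%). Rpl39l had a single entry, in injured 2 and outside the glutamatergic nuclei. The 3 relatives of muscle and testis, Rpl3l, Rpl10l and Rpl39l, are thus the only members below 5% here.

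The order of the genes was shared between libraries. Over the 80 members stored in more than 5% of nuclei, Spearman's rho of the depth-matched shares ranged from 0.80 (uninjured 2 and injured 2) to 0.91 (uninjured 1 and uninjured 2), a description across genes. The stored share did not follow the length of the gene (rho = -0.01 with the span, -0.10 with exonic bases). Members are short, with a median span of 3368 bases against 17407 for the protein-coding genes of the files (GENCODE M21, GRCm38). Rpl11, the most often stored, spans 25164 bases, chr4:136028265-136053428. Rpl6, the next, spans 4761 bases, chr5:121204481-121209241. Small nucleolar RNAs on either strand overlap 30 members, 59 in all. In Rps2, for example, Snora78 lies on the opposite strand. These 30 members were stored in 35.0% of nuclei in the median against 31.2% for the other 53 members. For 23 members a gene on the opposite strand overlaps (36.6% of all protein-coding genes have such a neighbour), and the use of strand in counting is not given in the sources used here.

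Relatives of a member were stored at different rates, and how the counting assigned reads between relatives was not tested. Rpl3 and Rpl3l share 73.2% of positions in a GENCODE coding alignment and were stored in 37.9% and 1.23% of glutamatergic nuclei. Gaps count as positions in these shares, so relatives of unlike length score lower. Rpl10 and Rpl10l share 84.7% and were stored in 21.5% and 0.318%. Rpl39 and Rpl39l share 85.0%, and Rpl39 was stored in 23.6%. Rps27 and Rps27l, the latter a p53 target, share 61.0% and were stored in 34.6% and 9.01%. In contrast, Rpl22l1 (40.3%) was stored more often than its relative Rpl22 (31.5%; identity 68.2%), and Rpl7l1 (30.8%) more often than Rpl7 (20.3%; identity 54.0%). Reads from the many processed pseudogenes of this family can be lost or split in counting, so the levels of single members are uncertain.

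The number of members stored in a nucleus rose with depth in every library. Glutamatergic nuclei held 26.7 ± 11.1, 22.4 ± 9.05, 20.4 ± 12.3 and 36.1 ± 12.2 members on average (SD over nuclei). In uninjured 1 the mean was 9.14 in nuclei with 2000 to 3000 stored genes, 22.4 at 4000 to 6000 and 42.1 at 8000 and above. Injured 2 had 23.1, 36.2 and 57.1 members in the same bins. At 2000 to 8000 stored genes, the plot of members against depth has 3 libraries lying on nearly the same course and injured 2 above them. Across nuclei, Spearman's rho between members and stored genes was 0.77, 0.76, 0.75 and 0.64, a description over 463, 708, 414 and 314 nuclei that share their library.

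**Figure D1:**
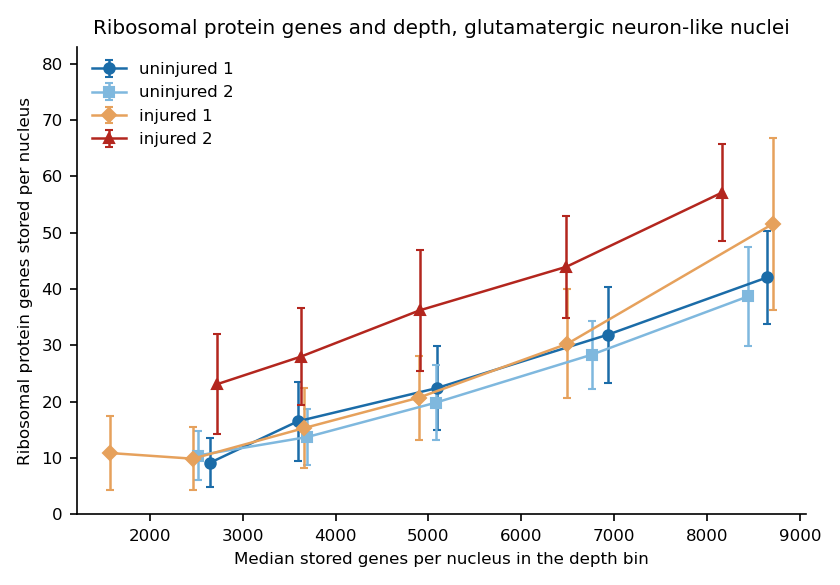
Mean number of the 83 ribosomal protein genes with a stored entry per glutamatergic neuron-like nucleus (y axis) against the median number of stored genes of a depth bin (x axis), for bins of at least 10 nuclei, with bars of 1 SD over nuclei and a line per library. Injured 2 lies at 36.2 members in the bin of 4000 to 6000 stored genes, where uninjured 1, uninjured 2 and injured 1 lie at 22.4, 19.8 and 20.7.

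Nuclei with more members than their depth would give also stored more of several other lists. With the number of stored genes held constant, the rank correlation between members and the 20 short cytoplasmic mRNAs was 0.48, 0.38, 0.57 and 0.59 over glutamatergic nuclei. With the 13 mitochondrially encoded genes it was 0.24, 0.18, 0.30 and 0.25. With the mitochondrial ribosomal protein genes, whose mRNAs come from the nucleus, it was 0.18, 0.18, 0.16 and 0.34. With the 8 nuclear long noncoding RNAs, most of them stored in nearly all nuclei, it was 0.01, -0.00, -0.00 and 0.05. In the 798 glia of uninjured 2 the values of these 4 lists were 0.25, 0.20, 0.02 and 0.06. These are descriptions within a library, given without a test.

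Injured 2 stood apart in the members in clusters of neurons, and only 6 glial nuclei of that library could be read beside them. Among the 10 clusters with at least 10 nuclei in every library, 8 of them glutamatergic, it had the highest value in all 10, with 6.53 to 9.13 members per 1000 stored genes against 3.75 to 5.58 in the other libraries. Its 6 glial nuclei held 11.4 per 1000, against 5.47, 4.04 and 4.61. A single astrocyte-like nucleus gave 48 of their 120 entries. The 4 oligodendrocyte-like nuclei were at 9.97 per 1000, against 5.62, 4.12 and 5.56. The single precursor-like nucleus was at 4.97, near the 4.67 and 4.29 of uninjured 1 and 2. The 3 pericyte or fibroblast-like nuclei of injured 2 were an exception, at 6.25 per 1000, below the single such nucleus of uninjured 1 and the 4 of injured 1 (16.6 and 7.96). Cluster 7, shallow nuclei with neuronal markers and with Nefl and Tubb3 among their leading genes, reached 9.13 per 1000 in injured 2 and 5.58 in uninjured 2. The highest number in that cluster of uninjured 2, 79 of the 83 members, belonged to a deep nucleus with 8000 or more stored genes. Nuclei with 15 or more members per 1000 stored genes were 2 of 562, 5 of 2071, 2 of 561 and 12 of 389. This limit was set after the values were seen, and deep nuclei cannot reach it. Of the 12 in injured 2, 8 lay in cluster 7 and 1 in a glutamatergic cluster.

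**Figure D2:**
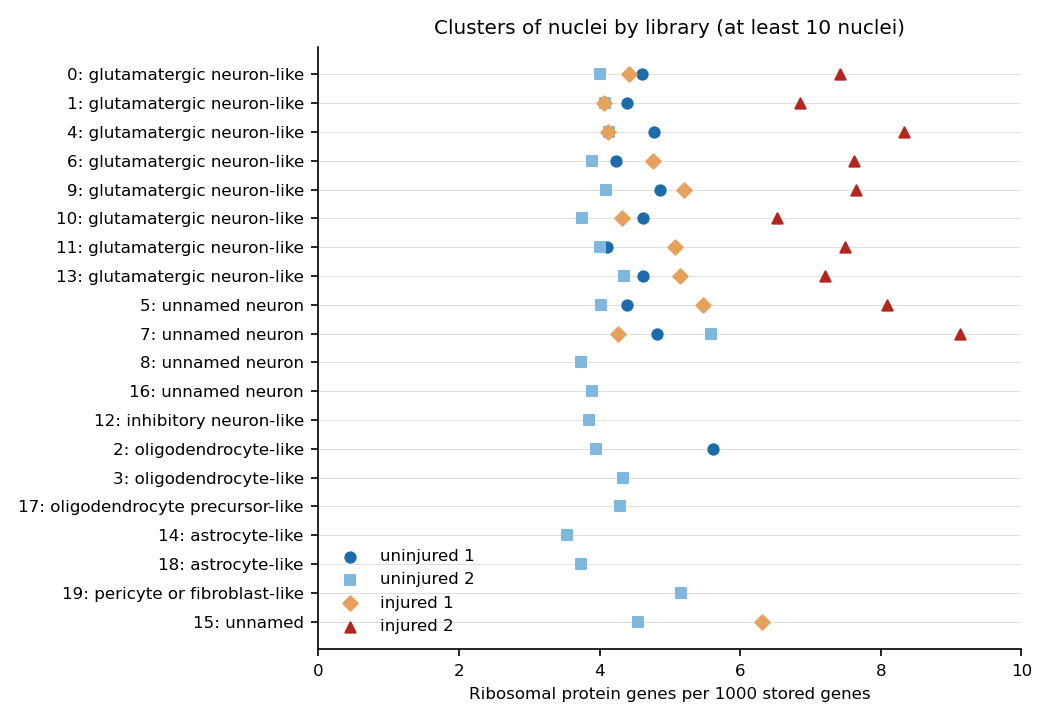
Ribosomal protein genes per 1000 stored genes (x axis) in each cluster of nuclei (y axis, with cluster number and class) by library, shown where a library has at least 10 nuclei. In every cluster with 4 symbols injured 2 is the highest, from 6.53 to 9.13.

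Injured and uninjured neurons were compared at a matched number of stored genes, with 275 glutamatergic nuclei standing for each library. Matched depth means this number alone, and the kept counts were not matched with it. The mean number of members per nucleus was then 23.0 and 20.5 in the uninjured and 22.0 and 36.9 in the injured libraries. Injured 1 thus lay between the uninjured libraries and injured 2 far above all 3. The group means were 21.8 ± 1.74 uninjured and 29.5 ± 10.5 injured (SD, n = 2 each), a difference of 7.71, with an exact two-sided permutation p = 0.667. Without injured 2 the difference was 0.280, and without injured 1 it was 15.1.

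Gene by gene, 0 of the 80 members that passed the filter were called by limma on the log2 odds of a stored entry. Nor was any other of the 13295 genes tested (0% called, 1716 or 12.9% at an unadjusted p under 0.05, and 11 of 80 members). The filter, a stored share of at least 5%, left out Rpl3l, Rpl10l and Rpl39l. The difference was above 0 in 78 of 80 members (50.8% of all genes tested) and its median was 0.70, against 0.01 over all genes tested. The median standard error was 0.43 and the smallest adjusted p 0.257. Leaving out injured 2, 49 of 80 were above 0 (51.6% of all genes), with a median of 0.08. Leaving out injured 1, the median was 1.29 and 72 of 80 members had an unadjusted p under 0.05 (15.4% of all genes), with 0 called. Matched on kept counts instead, the median was 0.77, against 0.14 over all genes tested. Both injured libraries lay above both uninjured in 31 of 80 members (21.5% of genes tested), and both lay below in 0 of 80 (22.3%). Injured 2 exceeded the other 3 libraries in 78 of 80 members, where 26.8% of all genes tested do so. Its shares were 1.73 times the mean of the other libraries in the median member (range 1.13 to 2.50) and 0.991 times in the median gene.

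The large and small subunits had similar values in this contrast. The 32 small-subunit genes had a median difference of 0.72 and the 48 tested large-subunit genes one of 0.69. At matched depth the median small-subunit gene was stored in 27.6%, 24.3%, 25.8% and 43.7% of nuclei and the median large-subunit gene in 26.8%, 25.5%, 26.7% and 49.7%.

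Rpl38, a small large-subunit protein linked to the translation of Hox mRNAs, had the smallest p. It was stored in 41.0% and 31.2% of uninjured and 48.6% and 67.3% of injured nuclei at matched depth. The groups did not overlap, and the limma difference was 1.31 ± 0.41 (SE, log2 odds, adjusted p = 0.257). Without injured 2 it was 0.75 ± 0.35. Rps29, a zinc-binding protein of the small subunit, was stored in 34.2%, 32.2%, 40.8% and 54.5%, again without overlap (0.87 ± 0.31). Rpl26, which lies at the exit tunnel of the large subunit, was stored in 26.8%, 26.8%, 33.5% and 50.8% (0.97 ± 0.36). The uninjured libraries were nearly equal for this gene, and both injured libraries lay above them.

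Rps9 (24.9%, 23.8%, 30.1% and 40.9%) and Rpl18 (18.1%, 15.8%, 21.1% and 41.9%) showed the same order, with injured 1 a little above the uninjured libraries and injured 2 well above it. Their limma differences were 0.76 and 1.10, with adjusted p of 0.346 and 0.372. Without injured 2 they were 0.42 and 0.39, each with a standard error of 0.27 or 0.28. Rpl19, a protein of the intersubunit bridge, was stored in 38.3%, 35.2%, 43.0% and 68.8%. None of these genes passed the threshold.

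Rpl27a and Rps27 were the 2 members with a difference below 0. Rpl27a was stored in 59.5%, 52.6%, 41.9% and 58.2% and Rps27 in 41.5%, 29.4%, 22.2% and 40.9%. In both, uninjured 1 was highest and injured 1 lowest, and injured 2 lay within the uninjured range. Their limma differences were -0.35 ± 0.36 and -0.29 ± 0.46. Rpl11 was stored in 60.9%, 56.9%, 50.5% and 73.5%, so injured 1 was lowest and injured 2 highest. Rpl7l1, the member with most counts, varied little among libraries, at 25.8%, 27.8%, 31.4% and 33.6%.

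The stalk proteins recruit the translation factors to the ribosome. Rplp1 was stored in 33.8%, 24.9%, 30.8% and 55.5% and Rplp2 in 33.2%, 22.2%, 30.3% and 45.8%, so the partners kept the same order over libraries. Rplp0, to which both bind, was stored in 8.80%, 8.17%, 8.95% and 21.6%. The ratio of injured 2 to the mean of the others was 2.50 for Rplp0, the highest of the tested members.

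**Figure D3:**
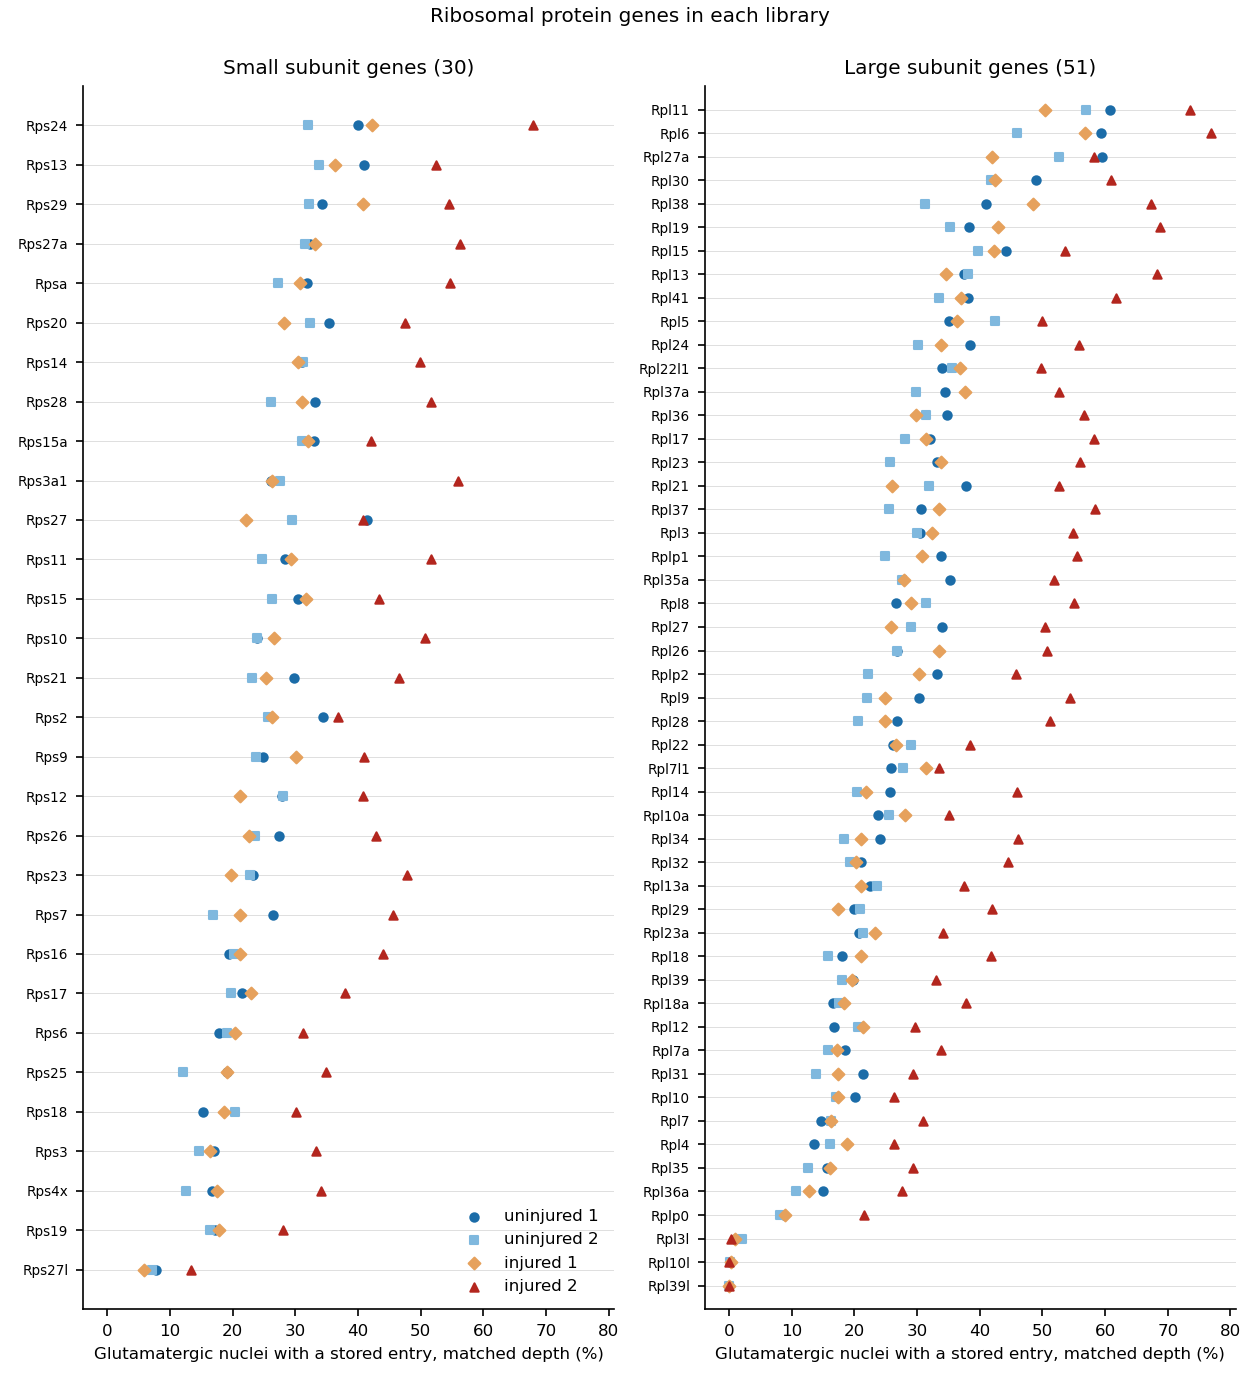
Share of glutamatergic neuron-like nuclei with a stored entry at matched depth (x axis, percent) for 81 of the ribosomal protein genes (y axis), small-subunit genes at left and large-subunit genes at right, ordered by the mean of the 4 libraries, with a symbol per library. Injured 2 is to the right of the other symbols for 76 of the 78 genes shown that were tested, while the other 3 libraries overlap.

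Some proteins of the ribosome carry other names and were read beside the members. Fau, made as a fusion of a ubiquitin-like protein with a small-subunit protein, was stored in 34.8%, 28.5%, 43.1% and 66.5% (limma difference 1.41 ± 0.45, adjusted p = 0.260). Rpl36al, a relative of Rpl36a, was stored in 20.5%, 23.2%, 29.4% and 47.9%. Rack1, a scaffold on the small subunit, was stored in 18.5%, 17.1%, 15.3% and 27.3%. Of the 4 tested genes of this list 3 were above 0 and 0 were called.

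Among the other lists, that of short cytoplasmic mRNAs had the highest median difference, 0.96. Of its 20 genes 19 had a difference above 0 and 0 were called. Its mean stored share at matched depth was 44.4%, 43.2%, 46.8% and 67.3%, so injured 2 stood apart there too. Without injured 2, 12 of 20 were above 0 (median 0.25). Ckb, brain creatine kinase, was stored in 52.6%, 63.8%, 78.0% and 87.1% (1.79 ± 0.38, adjusted p = 0.156). In this gene each injured library lay above each uninjured library.

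Elongation factors were above 0 in 5 of 6 (median 0.50, 0 called), with Eef2 at 33.1%, 32.3%, 38.6% and 50.2%. Initiation factors and other TOP mRNA genes were above 0 in 9 of 15 (median 0.19, 0 called). Mitochondrial ribosomal protein genes were above 0 in 63 of 78 (median 0.34, 0 called), and in 45 of 77 without injured 2 (median 0.12). Their mean stored share was 23.7%, 24.3%, 24.99% and 30.3%, a smaller gap for injured 2 than in the cytosolic family. Ribosome biogenesis genes, whose products work in the nucleolus, were above 0 in 11 of 20 (median 0.04), and their mean share was 30.8%, 30.2%, 29.8% and 31.3%. Signalling genes of the mTOR and S6 kinase pathway were above 0 in 8 of 11 (median 0.05), with a mean share of 50.9%, 51.5%, 53.2% and 50.7%. Neither list set injured 2 apart, and 0 of their genes were called.

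The mitochondrially encoded genes followed another order. Their mean share was 11.1%, 18.4%, 7.98% and 18.7%, so uninjured 2 was as high as injured 2, while the members of uninjured 2 were the lowest of the 4 libraries. Of 9 tested, 2 were above 0 (median -0.11). The nuclear long noncoding RNAs had mean shares of 84.5%, 87.5%, 86.8% and 86.3%, and Malat1 and Meg3 were stored in 100% of matched nuclei in each library. The median gene of this list was stored in 98.5% to 99.9% of nuclei, so its share left little room for a gap. Miat was stored in 81.2%, 88.1%, 94.3% and 92.5% (1.32 ± 0.33, adjusted p = 0.179). Kcnq1ot1, which overlaps Kcnq1 on the opposite strand so that their reads may not be told apart, was stored in 97.6%, 97.3%, 99.8% and 99.3% (2.36 ± 0.45, adjusted p = 0.149). In both, each injured library lay above each uninjured library, and neither was called. The part of RNA from outside the nucleus in the members' entries was not tested.

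**Figure D4:**
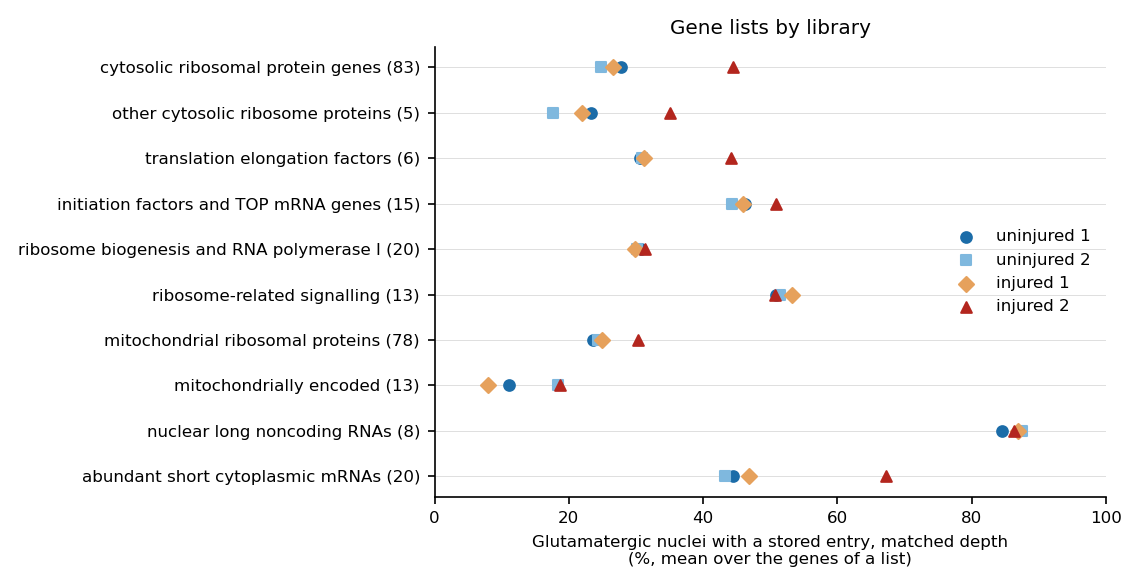
Mean share of glutamatergic neuron-like nuclei with a stored entry at matched depth (x axis, percent, averaged over the genes of a list) for the ribosomal protein genes and 9 other lists (y axis, number of genes in brackets), with a symbol per library. Injured 2 lies apart at 44.5% for the ribosomal protein genes and 67.3% for the short cytoplasmic mRNAs, and close to the other libraries for biogenesis and signalling. The long noncoding RNAs, with a median gene at 98.5% to 99.9%, leave little room for a gap.

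Glia and neurons were compared within each library. Unmatched, glial nuclei stored fewer members, 10.4, 7.50, 6.71 and 20.0 per nucleus against 26.7, 22.4, 20.4 and 36.1 in glutamatergic nuclei, but they also stored far fewer genes (medians of 1760.5, 1711.5, 1164.5 and 1517 against 5818, 5496, 4380 and 4894.5). In limma on all nuclei 60 of 79 members were called, all lower in glia, where 82.1% of all genes tested were called lower. Per 1000 stored genes the values for glia and neurons were 5.47 and 4.54, 4.04 and 4.04, 4.61 and 4.41, and 11.4 and 7.24 in the 4 libraries. Glia were above neurons in 3 of 4 (exact paired permutation p = 0.25).

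With the number of stored genes matched, glia lay above neurons in 2 of 3 libraries. Matching left weights of 6, 61 and 7 glial nuclei in uninjured 1, uninjured 2 and injured 1, and injured 2 fell below the minimum of 5. Glia then held 16.6, 13.2 and 8.14 members per nucleus and neurons 11.03, 13.1 and 9.01. The mean difference was 1.58 (glia 12.6 ± 4.25, neurons 11.05 ± 2.04, SD, n = 3), with an exact paired permutation p = 0.750, where 3 pairs allow no p below 0.25. Without uninjured 1 the difference was -0.404, and with oligodendrocyte-like nuclei as the only glia it was 3.75.

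In limma at matched depth 0 of 77 members were called (13.1% of 10771 genes were), 42 of 77 were above 0 (47.6% of all genes) and the median was 0.05, against -0.07 over all genes. Glia were above neurons in all 3 libraries for 8 of 77 members and in none for 5. Rplp1 had the smallest p, stored in 83.3%, 26.6% and 14.3% of glia and 17.3%, 18.5% and 10.5% of neurons (1.57 ± 0.68, adjusted p = 0.133). Without injured 1 it was called (2.18 ± 0.77, adjusted p = 0.038), a fit on 2 libraries. Rps4x, the X-linked small-subunit gene, was stored in 33.3%, 11.5% and 21.4% of glia and 2.63%, 7.20% and 19.6% of neurons (1.08 ± 0.67, adjusted p = 0.331). Other members with higher values in glia, Rpl29, Rpl13, Rpl28 and Rps10, had differences of 0.96 to 1.03 and adjusted p of 0.357 to 0.415.

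Rpl9 lay lowest in glia by p, at 0%, 15.6% and 0% against 15.8%, 10.8% and 32.2% in neurons (-1.39 ± 0.68, adjusted p = 0.195). Rpl22l1, at 0%, 20.1% and 0% of glia, was below neurons in all 3 libraries (20.0%, 22.2% and 10.0%), with a difference of -1.21 ± 0.66 and an adjusted p of 0.254. Rps19, Rpl15, Rpl14 and Rpl37 had differences of -1.12 to -0.93 and adjusted p of 0.310 to 0.428. With 6 and 7 glial nuclei in the smaller libraries, a single nucleus there moves a share by many percentage points, and only the 61 nuclei of uninjured 2 place the members near the diagonal.

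In the same fit the nuclear noncoding RNAs separated the classes, with 6 of 8 called, 1 higher and 5 lower in glia. Neat1, a scaffold of nuclear paraspeckles, was stored in 66.7%, 77.1% and 57.1% of glia and 0%, 15.6% and 0.816% of neurons (4.25 ± 0.65). Of the short cytoplasmic mRNAs 1 of 20 was called, Fth1, the ferritin heavy chain, at 83.3%, 80.2% and 64.3% of glia and 45.6%, 46.2% and 28.2% of neurons (2.06 ± 0.65, adjusted p = 0.026). The mitochondrially encoded genes were above 0 in glia in 9 of 9, with 0 called (median 0.76).

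**Figure D5:**
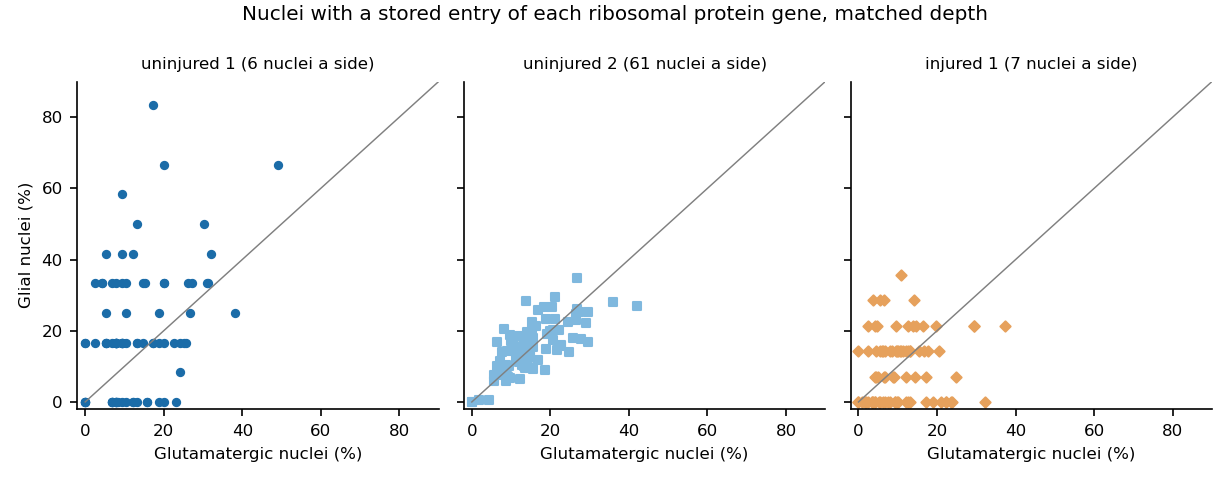
Share of nuclei with a stored entry at matched depth in glia (y axis, percent) and in glutamatergic neuron-like nuclei (x axis, percent), a point per ribosomal protein gene and a panel per library, with the line of equality. In uninjured 2, with 61 nuclei a side, the points lie along the line, and with 6 and 7 nuclei a side in uninjured 1 and injured 1 they scatter widely.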

How the data were processed

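The authors deposited whole-number counts of unique molecular identifiers per gene and nucleus in 4 matrices. The build mm10 and the tools Cell Ranger and Seurat 5.0.0 are listed without their roles, per the submitters' processing notes. For Cell Ranger the version, for SoupX the settings, and for counting the strand were not given in the sources used here. Nuclei under 500 genes with a count (6, 324, 38 and 39) were left out, as were Scrublet doublets (0.306%, a caller that marks few). Deposited matrices shared 2 barcodes between libraries.

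Nuclei were integrated in Seurat (2000 variable genes, 30 dimensions, resolution 0.5), giving 20 clusters, and named from a list of markers. For glia, pericyte or fibroblast-like and inhibitory clusters, a marker counted at 4-fold with an entry in 5% of nuclei, and 3 were needed. Glutamatergic clusters reached 3 markers of no such type and were named by another rule. That rule used expressed neuronal genes, stored V2a genes and kept counts of Slc17a6. These clusters had 5 neuronal genes, 4 or 5 V2a genes and as few as 1 kept count of Slc17a6. Cluster names are rebuilt here. The cluster led by Gad2 and Chat, with glutamatergic markers, stayed unnamed.

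Counts were summed per library and class and tested with edgeR 4.0.16 (TMM, quasi-likelihood). Shares of nuclei with an entry were matched on stored genes in bins of 0.25 log2 and tested as log2 odds (pseudocount of 0.5 nuclei, at least 5% stored) with limma 3.58.1, Benjamini-Hochberg adjusted over all genes at 0.05. Glia tests had library as a block. Both tests were tested on simulated data. Exact permutation tests are two-sided.

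Named members are the 8 most and least stored, up to 6 per direction by p in each fit, those with counts, the relatives, and up to 4 genes per list. The members and lists were chosen with earlier results of these data known. Gene sequences come from RefSeq and GENCODE M21. Some genes that the rule names are not reported here.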

Additional observations from a re-analysis of the deposited data

Results flagged for a closer look

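Nuclei left out of every comparison because they had fewer than 500 genes with a count carried the members at 47.2 per 1000 stored genes in injured 2 (39 nuclei, 22.4 members each, a median of 432 stored genes). This is above the 8.10 and 6.85 of the uninjured libraries (6 and 324 nuclei) and the 5.59 of injured 1 (38 nuclei).

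The difference between glia and neurons at matched depth was 5.55 and 0.0628 members per nucleus in the uninjured libraries and -0.871 in injured 1, so the uninjured mean exceeded the injured value by 3.68. Matched weights were 6 and 61 glial nuclei in uninjured 1 and 2 and 7 in injured 1. Uninjured 2, with the most nuclei, had nearly no difference. With 1 injured library and so few nuclei, no direction by group can be read, and the 3.68 was not tested.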

How the results depend on the processing

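In the comparison of glia with neurons, without matching for depth 60 members were called in limma, against 0 with it, and without each replicate in turn the count ranged from 0 to 1. In the injury comparison of entries the count of members called was 0 under every alternative run. In the injury comparison of counts at most 2 members could be tested, so a count of 0 there says nothing about stability. The members' matched difference between injured and uninjured nuclei stayed positive, between 0.280 and 15.1 without each replicate in turn. It was 3.75 unmatched, 8.61 matched on kept counts, and 7.74 with the Gad2 and Chat cluster (the last 2 chosen after seeing the data). The difference of count shares between glia and neurons rests on 3 glial counts. It was 9.26e-04 percentage points, turned to -1.63e-04 in oligodendrocytes alone, and ranged from -9.60e-05 to 1.35e-03 without each replicate in turn, turning at injured 1. The matched glial difference ranged from -0.404 to 2.81 without each replicate in turn, turning without uninjured 1, and was 3.75 in oligodendrocytes alone.

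Counts over all genes moved more. The injury edgeR test of counts called 363 genes without uninjured 1, 3 with no filter and 6 in DESeq2, and the limma test of entries called 2253 unmatched. For glia, edgeR called 2298 genes, 1563 with no filter and 1130 without uninjured 2, and limma called 279 without uninjured 2 against 1407.

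Same-numbered libraries are not stated to be paired, and their deviations correlated at -0.13 in counts and 0.04 in entries. With the replicate block no member could be tested in counts and 0 were called in entries (14 of 80 at an unadjusted p under 0.05), and with crossed numbers, added after seeing the data, 0 again (21 of 80). The median over nuclei of the count share was 0 in every library. No member was among the variable genes, so clusters built without the members are the same clusters. Leaving out injured 2 gave no glial fit of entries, where it had no part. The members kept too few counts to be thinned, and entries cannot be thinned.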

Other observations

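With 83 members in all, deep nuclei cannot reach 15 members per 1000 stored genes, so this limit itself selects shallow nuclei. Nuclei that reached it had medians of 1713.5, 1952, 1001 and 2400.5 stored genes (2, 5, 2 and 12 nuclei). The other nuclei had medians of 5484.5, 3316, 3867 and 4518. The nuclei at or above the limit stored 35.5, 46, 17.5 and 37.5 of the 83 members in the median. In uninjured 2 these 5 nuclei held 7.80 of the 13 mitochondrially encoded genes on average against 2.27 in the others, and 13.6 of the 20 short cytoplasmic mRNAs against 6.64. In injured 2 the gap was smaller, 3.08 against 2.31 and 13.8 against 12.7. In uninjured 1 the values were 4.5 against 1.67 and 13.5 against 9.45. Injured 1 went the other way for the short cytoplasmic mRNAs, at 4.5 against 7.64, and had 3.5 against 0.889 mitochondrially encoded genes.

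Shallow glutamatergic nuclei of injured 1 also ran above their library's course. Its 13 nuclei with 1000 to 2000 stored genes held 6.97 members per 1000 stored genes, against 3.92 at 2000 to 3000. Its 18 deepest nuclei, at 8000 stored genes and above, held 51.6 members with an SD of 15.3, against 42.1 ± 8.26 and 38.7 ± 8.83 in the uninjured libraries.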
